A study of Mus musculus with 4 samples.

Results

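The AP-1 genes are the 7 Fos and Jun genes of the mouse: Fos, Fosb, Fosl1 and Fosl2, and Jun, Junb and Jund. All probe sets whose only gene symbol was a member were taken, which gave 7 probe sets, 1 per gene, among 19938 named genes on the arrays. Affymetrix arrays had measured RNA from bone marrow of mice, in cells with the sort phenotype Lin- c-Kit+ Sca-1+ (abbreviated KLS), which takes in hematopoietic stem cells and early progenitors. There were 2 arrays of cells labelled Klf7-/- (knockout) and 2 of cells labelled Klf7+/+ (wild type), all of strain C57Bl/6. Klf7 encodes a Kruppel-like zinc finger transcription factor. The cells of both genotypes derived from fetal liver and had been sampled from the marrow of chimeric mice. The labels give neither the age of the mice, nor the number of mice or donor embryos behind an array, nor whether knockout and wild-type cells came from the same animals. The spread between arrays may therefore be technical.

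AP-1 is a family of dimeric transcription factors. Its proteins pair through a leucine zipper and touch DNA through the basic stretch beside it. Jun proteins can pair with each other or with Fos proteins, whereas Fos proteins bind DNA stably only with a partner such as a Jun protein. Fos, Fosb, Jun and Junb are classical immediate early genes, transcribed within minutes of a stimulus through mitogen-activated protein (MAP) kinases, and their messages and proteins are short-lived. In blood stem cells Junb is known as a brake on proliferation and on myeloid output.

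Values are log2 intensities, and a difference is the mean of the knockout arrays minus the mean of the wild-type arrays with the moderated standard error (SE) of a limma fit to all 28939 probe sets tested. The family was chosen by values of this same contrast, since the differences of Fos, Jun and Junb were known when it was proposed, so the members' differences are a description and carry no p-value. A gene is called without overlap when both arrays of a group lie on the same side of both arrays of the other group. Over all named genes, 55.0% read lower in knockout at any size, and 18.6% read lower without overlap.

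Klf7 itself read 6.59 and 6.18 on the knockout arrays against 5.95 and 6.10 on the wild-type arrays. Its only probe set was thus not lower but higher in knockout without overlap, by 0.36 ± 0.21, as were 14.5% of all genes. The extent of the deletion is not stated in the labels, and probes lying beyond it would check nothing. Xist, the long noncoding RNA of X inactivation, read 11.76 and 11.58 on the knockout arrays against 5.24 and 4.80 on the wild-type arrays, and was the only probe set past an adjusted p of 0.05 in limma (0.00346% of those tested, adjusted p = 0.0454). Its difference of 6.65 lost that call under 5 of the 7 refits that kept all arrays (difference 5.67 to 6.65, limma adjusted p 0.0567 to 0.334) and whenever an array was dropped (6.43 to 6.87, adjusted p 0.28 to 0.765). The Y-linked gene Uty read 3.34 and 3.52 on the knockout arrays against 6.13 and 6.48 on the wild-type arrays. By these transcripts the knockout arrays read as female cells and the wild-type arrays as male cells. Klf7 genotype and sex thus divided the arrays in the same way and cannot be told apart, for any difference given here.

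All 7 AP-1 genes had a lower mean in the knockout arrays, and 4 of them, Fos, Fosl1, Jun and Junb, read lower without overlap (57.1% of the family, beside 18.6% of all genes). The differences ran from -0.70 for Fosl1 to -0.08 for Fosl2, with a median of -0.51 where the median over all genes was -0.03. Because the known differences led to the choice of the family, nothing is read from these counts. In bulk RNA, fewer cells of a type and less RNA per cell cannot be told apart, and on these arrays neither can genotype and sex. The other 3 genes, Fosb, Fosl2 and Jund, overlapped between the groups. The highest array was a wild-type array for 7 of 7 genes and the lowest was a knockout array for 6 of 7, the exception being Fosl2.

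**Figure D1:**
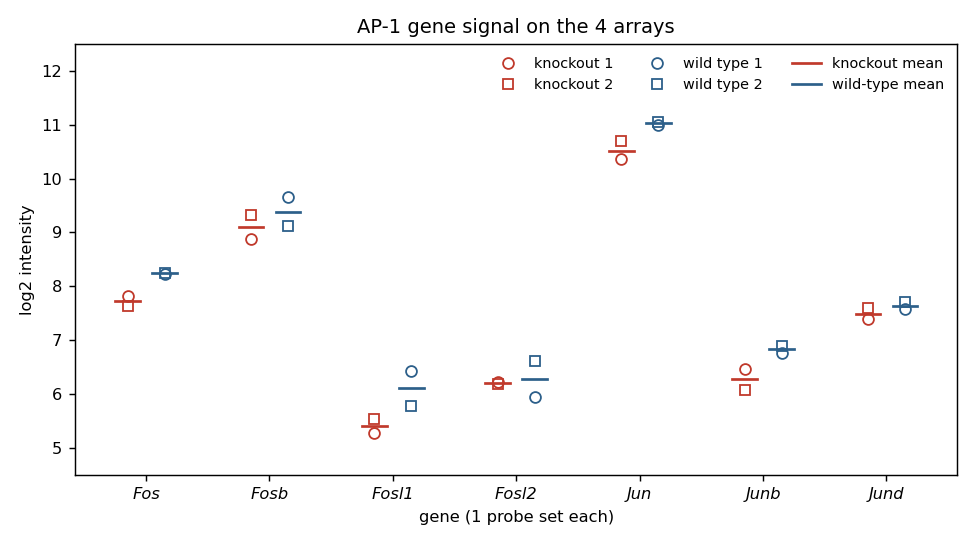
Log2 intensity (vertical axis) of the 7 AP-1 genes (horizontal axis, 1 probe set each) on the 2 knockout and 2 wild-type arrays; circles are replicate 1, squares replicate 2, and short lines the group means. The knockout and wild-type arrays separate for Fos, Fosl1, Jun and Junb and overlap for Fosb, Fosl2 and Jund; heights of different genes come from different probes and are not comparable.

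In the Fos family, Fos, the gene that gave the family its name, read 7.82 and 7.63 on the knockout arrays against 8.23 and 8.24 on the wild-type arrays. The wild-type arrays were almost equal, and both stood at least 0.41 above either knockout array. The difference was -0.51 ± 0.16 (SE, n = 2 per group), so that wild type was 1.42-fold above knockout. Fos had the steadiest difference among the 4 members without overlap. It stayed between -0.61 and -0.41 whichever array was left out. Fos lies on chromosome 12 (GRCm38.p6). The bases before its annotated start are shown so that the promoter letters of Fos, Jun and Junb can be set side by side. A link between these letters and the differences was not tested. Capitals mark TGACG, the start of the cAMP response element TGACGTCA, and the TATA box letters TATAAA, all read from RefSeq sequence at chr12:85473640-85473889, plus strand.
Fos: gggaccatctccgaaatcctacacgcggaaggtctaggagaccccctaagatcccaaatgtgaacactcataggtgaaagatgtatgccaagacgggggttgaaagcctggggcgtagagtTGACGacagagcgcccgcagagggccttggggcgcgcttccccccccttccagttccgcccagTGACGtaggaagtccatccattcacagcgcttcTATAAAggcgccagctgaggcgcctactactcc

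TGACG occurred at 129 to 125 and at 66 to 62 bases before the Fos start, and TATAAA at 33 to 28 bases before it. Searched on both strands, TGACG was present in 17.8% of 32851 RefSeq windows of the same 250 bases and TATAAA in 12.4%. The well-known serum response element of Fos lies further upstream than this window.

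Fosb, a close relative of Fos whose products accumulate after repeated stimulation in neurons, read 8.88 and 9.33 on the knockout arrays against 9.65 and 9.12 on the wild-type arrays. Knockout replicate 2 was above wild-type replicate 2, so the groups overlapped. The difference of -0.28 ± 0.27 was smaller than the gap of 0.53 between the wild-type arrays and the gap of 0.44 between the knockout arrays. It stood at -0.02 without wild-type replicate 1 and at -0.06 without knockout replicate 1.

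Fosl1, which encodes the Fos-related antigen Fra-1, read 5.28 and 5.53 on the knockout arrays against 6.43 and 5.78 on the wild-type arrays. It had the lowest difference of the family, -0.70 ± 0.27, with wild type 1.63-fold above knockout, and 1.64% of all genes had a difference as low or lower. With 32 added to every intensity, which damps dim readings most, it was -0.45, and Jun at -0.50 then had the lowest difference. It also rested in part on wild-type replicate 1, which stood 0.64 above the other wild-type array. Without that array the difference was -0.38, closer to 0 than those of Fos, Jun and Junb, and without wild-type replicate 2 it was -1.02. Fosl1 was the only member whose mean (5.76) lay under the median of all named genes (5.77).

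Fosl2, which encodes Fra-2, read 6.23 and 6.18 on the knockout arrays against 5.95 and 6.62 on the wild-type arrays. Both knockout arrays lay between the wild-type arrays. The difference of -0.08 ± 0.27 was far inside the gap of 0.67 between the wild-type arrays, and it turned to 0.26 without wild-type replicate 2.

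In the Jun family, Jun read 10.36 and 10.69 on the knockout arrays against 11.00 and 11.06 on the wild-type arrays. The wild-type arrays again lay close together, and the nearest knockout array stood 0.31 below them. The difference was -0.51 ± 0.19 (SE, n = 2 per group), with wild type 1.42-fold above knockout. Knockout replicate 1 was the lower of its pair and set part of the size: without it the difference was -0.34, and without knockout replicate 2 it was -0.67. Jun lies on chromosome 4, on the minus strand. The Jun promoter is known for an AP-1-like site through which Jun and ATF2 drive the gene, and the window chr4:95052223-95052472 holds its letters. Capitals mark CCAAT, TGACATCA (the AP-1-like site) and letters that fit the MEF2 site, in that order.
Jun: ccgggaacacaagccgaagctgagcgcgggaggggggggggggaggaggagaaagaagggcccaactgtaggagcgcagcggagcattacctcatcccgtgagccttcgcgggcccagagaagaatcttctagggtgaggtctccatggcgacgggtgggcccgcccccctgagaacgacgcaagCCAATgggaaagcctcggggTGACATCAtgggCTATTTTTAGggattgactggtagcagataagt

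TGACATCA stood at 45 to 38 and the MEF2 site at 33 to 24 bases before the Jun start. On both strands, TGACATCA was found in 2.93% of the windows, the MEF2 site in 2.92% and CCAAT in 33.8%. Of the 6 members with a RefSeq promoter window, Jun was the only one with TGACATCA or a MEF2 site, and it had no TGACG.

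Junb, which competes with Jun for partners and often acts against it, read 6.46 and 6.08 on the knockout arrays against 6.76 and 6.89 on the wild-type arrays. Both knockout arrays were at least 0.31 below both wild-type arrays. The difference was -0.56 ± 0.20, with wild type 1.47-fold above knockout. Here knockout replicate 2 was the lower of its pair, and the difference stood at -0.37 without it and at -0.74 without knockout replicate 1. Junb lies on chromosome 8, minus strand, and its window chr8:84978749-84978998 is given to set beside those of Fos and Jun, with TGACG and CCAAT in capitals.
Junb: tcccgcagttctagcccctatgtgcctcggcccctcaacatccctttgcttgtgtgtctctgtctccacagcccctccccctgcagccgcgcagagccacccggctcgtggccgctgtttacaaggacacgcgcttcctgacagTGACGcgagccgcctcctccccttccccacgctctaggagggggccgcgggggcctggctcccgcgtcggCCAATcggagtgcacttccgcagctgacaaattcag

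Junb held TGACG at 106 to 102 and CCAAT at 36 to 32 bases before its start. TGACG was present in 3 of the 6 windows, those of Fos, Fosb and Junb. CACCC, a box that many Kruppel-like factors are known to bind, was present on either strand in 5 of 6 windows, all except that of Fos, beside 52.0% of all windows. The GC box GGGCGG was present in 4 of 6, that of Fos among them, beside 32.7% of all windows. G and C made up 58.4% to 68.8% of the windows of Fos, Fosb, Fosl2, Jun and Junb and 47.6% of that of Jund. The windows of all genes were not matched for this, and its part in these shares was not tested. In the Jun and Fosb windows a CACCC match on the opposite strand overlapped TGACATCA or TGACG. The AP-1 consensus TGACTCA (4.46% of all windows), the full TGACGTCA (1.55%) and the CArG box bound by serum response factor (1.47%) were in 0 of 6. The Fosb window does not end at the outermost start of that gene in the RefSeq table. These are matches of letters and say nothing of binding.

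Jund, the Jun gene that is expressed most steadily in many tissues and is not a typical early response gene, read 7.39 and 7.59 on the knockout arrays against 7.57 and 7.70 on the wild-type arrays. Knockout replicate 2 stood just above wild-type replicate 1, so the groups overlapped by 0.03. The difference of -0.15 ± 0.17 was smaller than the gap of 0.21 between the knockout arrays and stood at -0.04 without knockout replicate 1. Of all genes, 29.3% had a difference as low or lower, whereas for Fos, Fosl1, Jun and Junb that share lay between 1.64% and 4.06%. The known differences of Fos, Jun and Junb led to the choice of the family, so nothing is read from these shares.

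**Figure D2:**
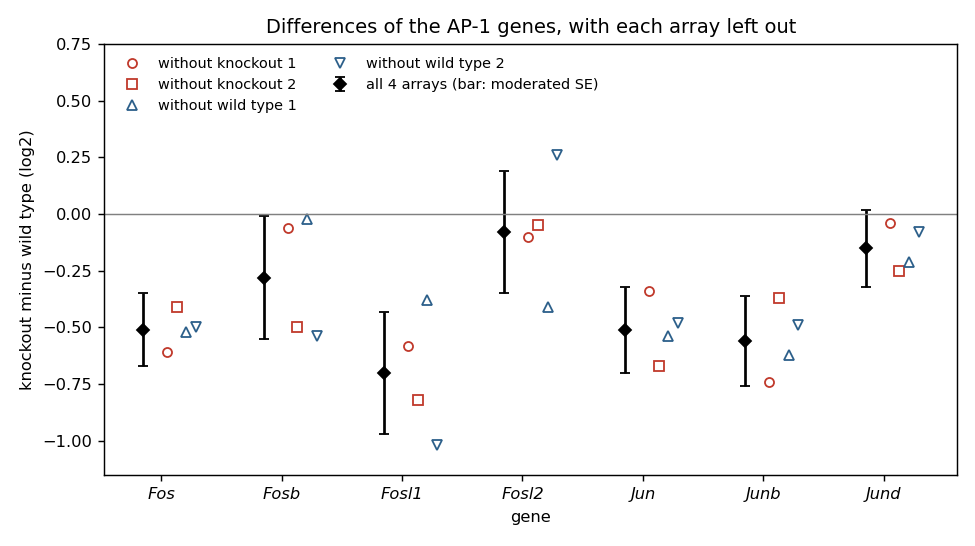
Log2 difference between the group means (knockout minus wild type, vertical axis) for each AP-1 gene (horizontal axis); diamonds use all 4 arrays with the moderated SE as bars, and open symbols show the value with the named array left out. Fos, Fosl1, Jun and Junb stay below 0 in every case, while Fosl2 reaches 0.26 and Fosb comes within 0.02 of 0.

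The arrays did not order the members in a common way within a genotype. Knockout replicate 1 was the lowest array for 4 genes (Fosb, Fosl1, Jun and Jund) and knockout replicate 2 for 2 (Fos and Junb). Wild-type replicate 2 was the highest for 5 genes and wild-type replicate 1 for Fosb and Fosl1. Over all genes the median absolute difference was 0.21 between the knockout arrays, 0.23 between the wild-type arrays and 0.16 between the group means. For Fosb, Fosl2 and Jund, a gap between arrays of the same genotype was larger than the difference between genotypes.

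**Figure D3:**
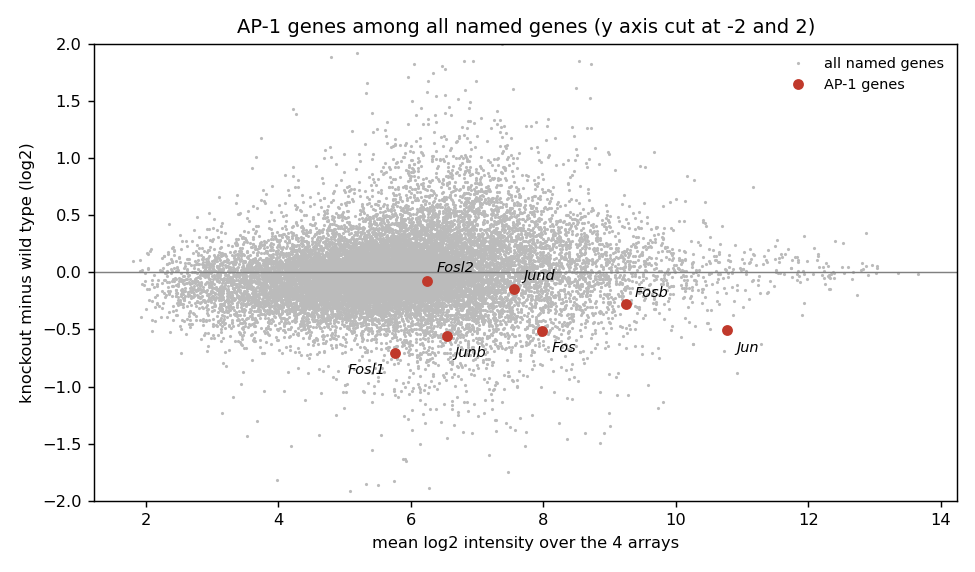
Knockout minus wild type (log2, vertical axis) against the mean log2 intensity over the 4 arrays (horizontal axis) for all named genes (grey) and the AP-1 genes (red). Jun, Fos, Junb and Fosl1 lie toward the lower edge of the cloud but inside it, and 20 genes beyond 2 in either direction are outside the axes.

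Over the 4 arrays Kit, the c-Kit antigen of the gate, read 9.55 to 10.12, the progenitor antigen gene Cd34 9.57 to 10.24 and the stem cell antigen gene Slamf1 4.35 to 4.49; these come from different probes and cannot be ranked. The Sca-1 gene Ly6a was not analysed here. Of 10 KLS markers, 6 read higher and 1 lower in knockout without overlap, beside 14.5% and 18.6% of all genes. In limma 0 passed, and the unadjusted p was under 0.05 for 2, beside 5.01% of all probe sets. At any size, 3 of the 10 read lower and 7 higher. Mecom, the 1 marker lower without overlap, differed by -0.71 ± 0.25, on the side of the AP-1 genes. Among those higher without overlap, Kit differed by 0.39 ± 0.17, Cd34 by 0.62 ± 0.15 and Flt3 by 0.48 ± 0.19. The summed intensity of the 10, to which bright genes add most, was 4915 and 4861 on the knockout arrays against 3961 and 3523 on the wild-type arrays. That sum was thus opposite to the AP-1 genes, and its part in the AP-1 values was not tested.

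Of 37 markers of other cells in 7 lists, 3 read lower and 5 higher in knockout without overlap, beside 18.6% and 14.5% of all genes. In limma 0 passed. The unadjusted p was under 0.05 for 1 lower and 2 higher, beside 2.50% and 2.51% of all probe sets. Some of these differences were larger than that of any AP-1 gene. Elane, the neutrophil elastase gene, read 5.04 and 5.41 on the knockout arrays against 6.83 and 5.75 on the wild-type arrays, a difference of -1.07 ± 0.40 on the side of the AP-1 genes. On the other side, Ppbp, which encodes platelet basic protein, differed by 1.24 ± 0.33 and the myeloid and lymphoid gene Ly86 by 0.72 ± 0.22 (limma adjusted p = 0.945 for all 3 genes). Their part in the AP-1 values was not tested. Directions within their lists were mixed. Of 8 neutrophil markers 3 read lower and 5 higher, with a median difference of 0.07. For 5 megakaryocyte markers the counts were 1 and 4 (median 0.14), and for 6 monocyte and macrophage markers 3 and 3 (median -0.05). The summed intensity of 8 neutrophil markers was 3929 and 1996 in knockout against 2922 and 2756 in wild type, and that of 6 monocyte and macrophage markers 487 and 486 against 476 and 521. The corresponding sums of 5 B cell markers were 565 and 190 against 224 and 201, with Vpreb1, a pre-B cell receptor gene, at 8.59 on knockout replicate 1 and 5.35 to 5.57 elsewhere. Those of 4 erythroid markers were 1127 and 821 against 748 and 894, and those of 5 megakaryocyte markers 803 and 647 against 761 and 560. The 5 T cell markers summed to 203 and 212 on the knockout arrays against 215 and 236 on the wild-type arrays, on the side of the AP-1 genes. All 5 read lower in knockout, 1 of them without overlap, with a median of -0.14, and their part in the result was not tested. Of these T cell markers, Cd3d, Cd3g and Cd4 read under the median of all named genes on every array. The 4 stromal and endothelial markers summed to 177 and 187 on the knockout arrays against 187 and 192 on the wild-type arrays. All 4 likewise read lower in knockout, 1 of them without overlap, with a median of -0.05, and their part was not tested. None of these marker genes was at 0, since the arrays give every probe set a positive value, and 5% of tested probe sets had a mean under 3.15.

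Around the AP-1 genes, 7 lists of the same pathway were followed, with the limma adjusted p over all probe sets. No list had a member past the threshold in either direction (smallest adjusted p = 0.945 in 6 lists and 0.953 for the inducing factors). At an unadjusted p under 0.05, the 121 genes of these lists held 8 lower and 3 higher in knockout, beside 2.50% lower and 2.51% higher of all probe sets. The 14.5% of all genes that read higher without overlap, and the 18.6% that read lower, are the background of the counts that follow.

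The dimer partners and bZIP relatives divided between the directions. Of 18 measured, 7 read lower and 11 higher, 3 and 3 of them without overlap, and the median difference was 0.04. Without knockout replicate 2 the split turned, with 11 of 18 lower. Atf2, which pairs with Jun at sites such as the one in the Jun promoter, read 8.11 and 8.22 on the knockout arrays against 7.63 and 7.37 on the wild-type arrays, a difference of 0.66 ± 0.18 with a limma adjusted p of 0.945. Its relative Atf7 differed by 0.60 ± 0.20 (adjusted p = 0.945), and by 0.41 with its 2 probe sets averaged. Nfe2l2, the oxidative stress factor NRF2, differed by 1.26 ± 0.61 (adjusted p = 0.949), which rested largely on 8.60 in knockout replicate 2 and was 0.51 without it. These 3 genes with the largest differences thus lay on the other side of 0 from Fos and Jun.

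The MAP kinase cascade, which relays stimuli to the AP-1 genes and proteins, gave 8 of 18 lower and 10 higher, 4 and 5 of them without overlap, with a median of 0.03. Mapk9, the kinase JNK2 that phosphorylates Jun, read 8.13 and 7.54 on the knockout arrays against 7.31 and 6.71 on the wild-type arrays, a difference of 0.82 ± 0.31 (adjusted p = 0.945). Map2k4, a kinase that activates JNK, read 5.75 and 6.25 against 6.36 and 7.09 and differed by -0.73 ± 0.33 (adjusted p = 0.945). Map3k5, the stress kinase ASK1 upstream of both, differed by 0.58 ± 0.20 (adjusted p = 0.945). The JNK route therefore held values on both sides of 0.

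The factors that induce Fos and Jun transcription had 7 of 14 lower and 7 higher, 0 and 3 of them without overlap, and a median of -0.02. Without wild-type replicate 1 only 1 of the 14 was lower. Srf, which encodes serum response factor, read 5.94 and 6.25 on the knockout arrays against 6.17 and 5.47 on the wild-type arrays, with overlap and a difference of 0.28 ± 0.29 (adjusted p = 0.966). Mrtfb, a coactivator of serum response factor, differed by 0.41 ± 0.31 (adjusted p = 0.955) and the histone acetyltransferase gene Ep300 by 0.24 ± 0.16 (adjusted p = 0.953). Without knockout replicate 1 the Mrtfb difference was -0.00088, and over all arrays it was 0.68 with its 3 probe sets averaged.

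The MAP kinase phosphatases, which are themselves induced by these kinases and switch them off, had 7 of 9 lower, 3 of them without overlap, and a median of -0.18. Dusp1 read 9.27 and 9.32 on the knockout arrays against 9.72 and 9.47 on the wild-type arrays, a difference of -0.30 ± 0.17 (adjusted p = 0.950). Dusp5, a nuclear phosphatase, differed by -0.29 ± 0.16 (adjusted p = 0.950), and Dusp6, a cytoplasmic one, by 0.25 ± 0.27 with overlap (adjusted p = 0.966).

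Among genes of Fos and Jun message decay and protein turnover, 11 of 13 read lower, 5 of them without overlap, 1 was higher without overlap, and the median was -0.26. Zfp36l2, one of the tristetraprolin family that binds AU-rich elements and promotes message decay, read 8.35 and 8.51 on the knockout arrays against 8.80 and 9.21 on the wild-type arrays, a difference of -0.57 ± 0.21 (adjusted p = 0.945). Ddb1, part of the ubiquitin ligase that can target Jun, differed by -0.55 ± 0.23 (adjusted p = 0.945). Cops5, a COP9 signalosome subunit first described as a Jun coactivator, differed the other way, by 0.43 ± 0.16 (adjusted p = 0.945).

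Genes described as AP-1 targets in other cells showed a median of -0.07, with 16 of 26 lower and 10 higher, 7 and 4 of them without overlap. Gclc, which makes the rate-limiting enzyme of glutathione synthesis, differed by 0.63 ± 0.25 (adjusted p = 0.945), and Bcl2l11, the proapoptotic gene Bim, by -0.39 ± 0.18 (adjusted p = 0.945). The cytokine gene Il1b read 7.29 in wild-type replicate 2 and 5.51 to 5.95 elsewhere, so its difference of -0.54 ± 0.61 (adjusted p = 0.968) became 0.35 without that array. With the dimmest probe sets left out, 9 of the remaining 18 were lower. Only 11 of the 26 had a mean above the median of all named genes, so many of these readings were dim.

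Other early response genes, which share the stimulus-driven induction of Fos and Jun, had 16 of 23 lower and 7 higher, 8 and 2 of them without overlap, and a median of -0.10. Btg2, an antiproliferative gene, read 8.48 and 8.99 on the knockout arrays against 10.01 and 9.61 on the wild-type arrays, a difference of -1.08 ± 0.26 (adjusted p = 0.945). The zinc finger factor genes Egr1 and Klf10 differed by -0.89 ± 0.23 and by -0.70 ± 0.19 (both with an adjusted p of 0.945). These 3 genes were named for the size of their differences, which lay below the AP-1 median of -0.51. The list median of -0.10 lay above it. Others of the list lay near 0: Nr4a1, an orphan nuclear receptor gene, at -0.08 ± 0.34 and Myc at 0.12 ± 0.19, both chosen after their values were seen.

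**Figure D4:**
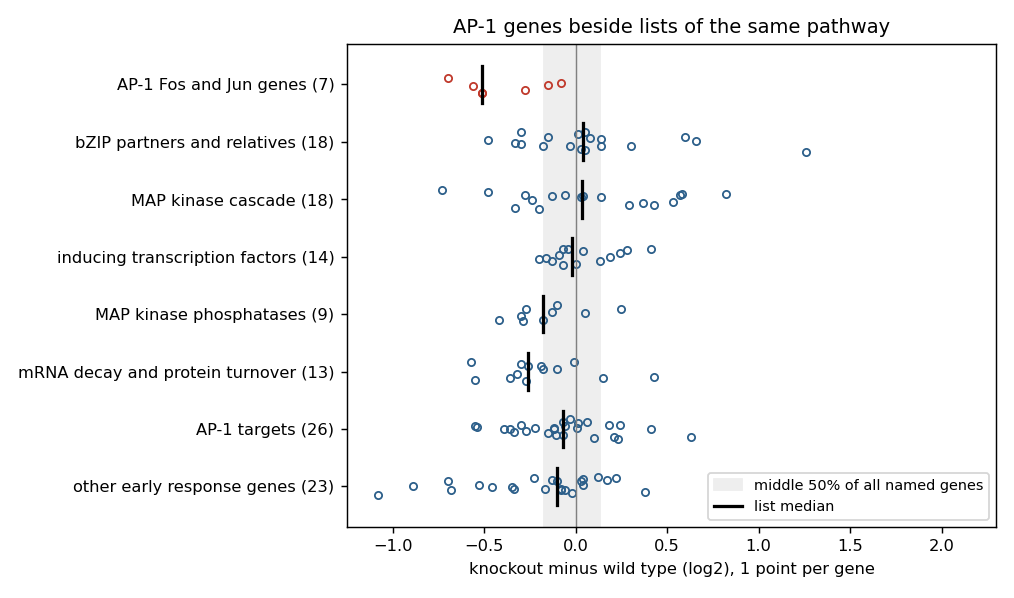
Knockout minus wild type (log2, horizontal axis) of each measured gene, by list (vertical axis, number of genes in brackets); black lines are list medians and the grey band holds the middle 50% of all named genes, from -0.18 to 0.13. The AP-1 median of -0.51 and the turnover median of -0.26 lie outside the band, the phosphatase median of -0.18 at its edge, and the other medians inside it.

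The genes most like the AP-1 genes were sought by the mean profile of the 6 members above the median level, each centred on its own mean over the 4 arrays. That profile stood at -0.20 and -0.14 in the knockout arrays and at 0.13 and 0.21 in the wild-type arrays. Among 9963 candidates the 5 nearest by root mean square distance were Hspb2 and Cldn22 (both 0.02 on the log2 scale), and Zfp36, Dclre1a and Apln (each 0.03). Zfp36 encodes tristetraprolin, which promotes decay of AU-rich messages. It read 9.98 and 10.07 on the knockout arrays against 10.29 and 10.36 on the wild-type arrays, a difference of -0.30 ± 0.15. Hspb2 is a small heat shock protein gene, Cldn22 a claudin gene, Dclre1a a DNA crosslink repair gene, and Apln the gene of the peptide apelin. The members themselves were further from their mean profile, from 0.11 for Jund to 0.26 for Fosb. Because the 5 genes were picked as the nearest of all candidates, that contrast follows largely from the search. The likeness rests on 4 arrays.

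**Figure D5:**
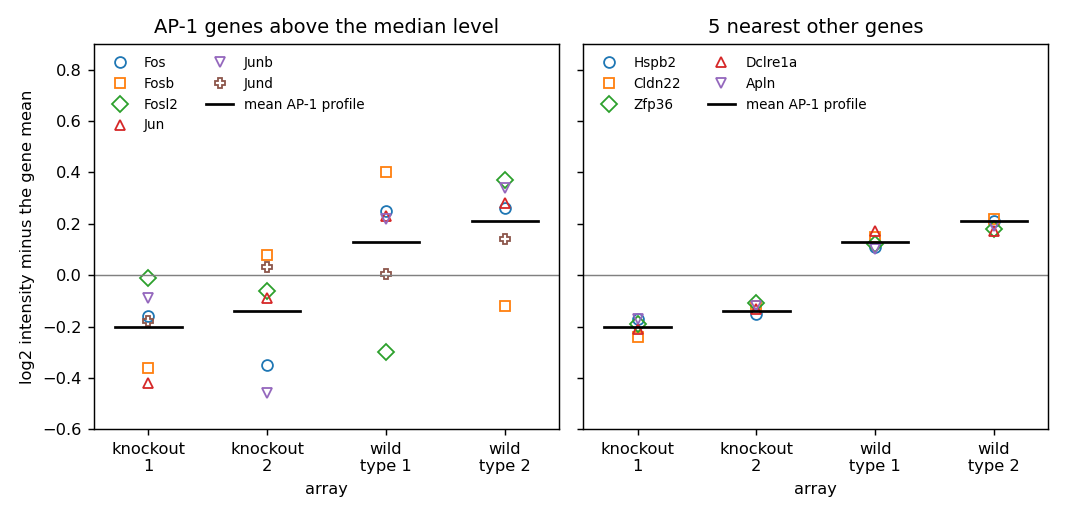
Log2 intensity minus the gene's mean (vertical axis) on each array (horizontal axis) for the 6 AP-1 genes above the median level (left) and the 5 other genes nearest to their mean profile (right), with the mean profile as black lines. The other genes, picked for their nearness, lie within a few hundredths of the profile, whereas Fosl2 and Fosb depart from it in opposite directions on the wild-type arrays.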

How the data were processed

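The deposited values are 1 intensity per probe set and array on a linear scale, up to 17720.8 among the probe sets tested. The submitters' processing notes name RMA and the Affymetrix Expression Console, giving neither version nor settings; RMA values are usually log2, whereas these are not. RNA was amplified with the NuGen Ovation System, per the labels' protocols. Array medians lay between 51.01 and 52.26, so log2 was taken with no further normalization. Precision is limited by there being 4 arrays.

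Of 35554 probe sets, the leading 6615, listed before the first annotated one, were assumed to be controls and left out. The platform annotation of 2016 gave 1 symbol for 21789 of the 28939 tested, several for 1621, and the remaining 5529 are unlisted there. Entrez IDs of 21698 probe sets matched the RefSeq table (GRCm38.p6), used for current symbols and promoter sequences. For the 999 genes with more than 1 probe set, the brightest was used.

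The groups were compared by limma 3.58.1 under R 4.3.3 (lmFit, eBayes, two-sided, Benjamini-Hochberg over all probe sets tested, threshold 0.05, 2 residual degrees of freedom). The fit was tested on simulated data, where it called most very large changes but missed those nearer the size of the AP-1 differences, so a gene short of the threshold is not shown to be unchanged. Groups and replicate numbers came from the sample titles. The members and lists were chosen with earlier results of these data known. Of the genes listed in the pathway and marker lists, 16 found no probe set of their own and were not analysed here. The named genes were all members, and of each pathway list those past the threshold, or failing any, at most 3 genes brighter than the median gene, taken by absolute difference, plus the 5 genes nearest to the mean AP-1 profile. Klf7, the sex-linked transcripts and the cell type markers are named outside this rule as checks of the arrays. Those singled out (Xist, Uty, Mecom, Flt3, Vpreb1, Elane, Ppbp, Ly86), like Nr4a1 and Myc, were chosen after their values were seen. The alternatives tried left out the dimmest 25% of probe sets, repeated quantile normalization, applied cyclic loess, added 32 to the intensities, let the variance follow intensity (also robustly), blocked on replicate number, dropped each array in turn, or averaged a gene's probe sets.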

Additional observations from a re-analysis of the deposited data

How the results depend on the processing

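The number of AP-1 genes lower in knockout was 7 under every alternative except without wild-type replicate 2, where it was 6 and Fosl2 stood at 0.26. Their median of -0.51 was -0.41 with an offset of 32, -0.54 after either repeated quantile normalization or cyclic loess, and -0.49 to -0.34 with an array left out. Of the alternatives that kept all arrays, only repeated quantile normalization, cyclic loess and the offset could change a member's difference. Under these, every difference of the 7 genes moved by less than the gene's pooled SD between replicates. That tolerance is wide where arrays of a genotype differ, as for Fosl1, which moved from -0.70 to -0.45 with the offset. The dim filter, the variance settings and the replicate block leave a member's difference as it is by construction. So does averaging, with 1 probe set per member.

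The limma count of 1 (Xist; 1450 at an unadjusted p under 0.05) became 0 under 5 alternatives that kept all arrays: 0 after repeated quantile normalization (1461 unadjusted), 0 for the offset of 32 (1488), 0 where variance followed intensity (1495), 0 where it did so robustly (1464) and 0 with the replicate block (1530). It was 0 to 0 when any array was dropped (1177 to 2069), a fit in which the remaining array of a pair borrows its spread from the other genotype. The labels do not say that equal numbers mark a shared mouse, and the deviations of same-numbered arrays correlated at 0.0434 across probe sets. The replicate block left the differences as they were.

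Medians near 0 turned or moved, and the cause was not tested. The inducing factors' median of -0.02 was 0.02 when probe sets were averaged, and it ran from -0.08 to 0.12 when an array was dropped. With an array left out, the median was -0.04 to 0.05 for the bZIP relatives, -0.06 to 0.10 for the MAP kinase cascade, -0.25 to -0.06 for the phosphatases, -0.33 to -0.14 for decay and turnover and -0.17 to -0.10 for other early response genes. The AP-1 targets' median of -0.07 was -0.03 with dim probe sets left out, with quantile normalization again and with cyclic loess, -0.04 with an offset of 32 and -0.12 to -0.01 with an array left out. When an array was dropped, Srf ran from -0.07 to 0.63, Dusp6 from -0.02 to 0.52, Mrtfb from -0.00088 to 0.81 and Il1b from -1.43 to 0.35. No detection calls were used, so only the offset and the dim filter speak to limits at low signal.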
